A study of Mus musculus with 4 samples.

Results

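Interferon-stimulated genes are the genes that cells switch on when an interferon binds its receptor. The 40 genes described here were taken by symbol from a list of such genes, and all 40 were among the 55403 features and had at least 1 unique molecular identifier (UMI, the tag that marks 1 captured RNA molecule). These genes and the other lists used below were chosen with earlier results of these data known. Their counts of calls beside the shares over all genes are therefore descriptions and not independent tests. The 40 genes were followed in single-nucleus RNA sequencing of frozen, pooled mouse hippocampus in 4 droplet libraries from 3 genotypes. WT was 1 library of mice with neither transgene. PS19 was 2 libraries, replicates 1 and 2, of mice that carry human MAPT with the P301S mutation (1N4R tau) under the Prnp promoter on a mixed B6;C3 background, a model of tau accumulation. TG_PS19 was 1 library of mice with that tau transgene and in addition a SORLA transgene, driven by a CMV/β-actin element, active in many cell types, at the Rosa26 locus. SORLA is the endosomal sorting receptor encoded by SORL1. Littermates of the crosses were used. The ages, sexes and number of animals in each pool are not given in the sources used here, nor whether the PS19 libraries came from separate animals, so that the spread between them may be technical.

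Type I interferons act through IFNAR1 and IFNAR2, which signal through the kinases JAK1 and TYK2. These activate transcription factors, among them STAT2, which enters the nucleus with IRF9 and binds a short DNA element, the interferon-stimulated response element, in front of the target genes. Their products sense foreign nucleic acid, block translation or replication of viruses, and raise or damp the response itself. In the brain, microglia and astrocytes both respond to interferon, and an interferon-responsive state of microglia has been described in ageing and in models of neurodegeneration.

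The promoters of many members share a letter pattern. The pattern is the core of the interferon-stimulated response element, GAAA followed by any 2 bases and a further GAAA, and was searched on both strands (TTTC, 2 bases, TTTC on the other) in windows of 300 bases, 250 before and 50 after each start site (RefSeq, build GRCm38.p6). Of the 32 members with a window, 19 held it at least once, or 59.4%, against 3.99% of the 27025 genes with a window. Among 41 other interferon-stimulated genes kept for comparison the share was 51.2%. The search counted overlapping matches. A match is a description of the letters and not evidence of binding, and a window without one says only that these letters are absent from it. Shown here, because they carry the pattern and belong to members that changed in the results below, are the 250 bases before the start of 4 members, 5′ to 3′ on the gene's own strand, with the matched letters in capitals. Ifit1 and Ifit3 carry the pattern on the opposite strand and Ddx60 and Oas1a on the gene's strand. In Oas1a the matches overlap, and they end close to the start site.
Ifit1, chr19:34640639-34640888, plus strand: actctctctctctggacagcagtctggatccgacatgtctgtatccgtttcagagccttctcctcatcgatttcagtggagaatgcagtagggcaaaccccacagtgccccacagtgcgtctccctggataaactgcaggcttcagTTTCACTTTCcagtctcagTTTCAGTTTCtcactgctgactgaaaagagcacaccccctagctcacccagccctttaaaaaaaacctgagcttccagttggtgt
Ifit3, chr19:34583279-34583528, plus strand: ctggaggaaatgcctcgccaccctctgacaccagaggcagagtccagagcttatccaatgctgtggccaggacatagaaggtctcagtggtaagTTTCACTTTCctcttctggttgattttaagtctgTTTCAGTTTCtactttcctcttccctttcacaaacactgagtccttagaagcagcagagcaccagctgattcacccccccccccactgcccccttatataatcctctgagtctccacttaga
Ddx60, chr8:61927837-61928086, plus strand: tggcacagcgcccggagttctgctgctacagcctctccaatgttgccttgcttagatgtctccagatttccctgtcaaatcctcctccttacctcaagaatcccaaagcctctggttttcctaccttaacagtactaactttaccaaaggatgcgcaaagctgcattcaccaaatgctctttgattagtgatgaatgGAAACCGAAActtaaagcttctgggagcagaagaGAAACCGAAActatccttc
Oas1a, chr5:120907526-120907775, minus strand: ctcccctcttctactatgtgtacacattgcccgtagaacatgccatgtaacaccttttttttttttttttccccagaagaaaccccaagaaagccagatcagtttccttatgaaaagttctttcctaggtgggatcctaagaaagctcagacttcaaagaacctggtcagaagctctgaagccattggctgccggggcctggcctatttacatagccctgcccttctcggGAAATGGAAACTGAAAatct
The start positions of the matches, counted back from the start site, were -104 and -85 in Ifit1, -156 and -122 in Ifit3, -53 and -19 in Ddx60, and -20 and -14 in Oas1a. Members with no match in their window included Irf7, Ifi44, Oasl2, Sp100 and Xaf1, which were among the members whose levels changed below.

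After filters, 11458 WT, 4467 and 4728 PS19 and 8963 TG_PS19 nuclei were kept. The libraries held 20064025 to 48670533 UMIs in all. Median UMIs per barcode were 2643 in WT, 2996 and 3709 in PS19 and 2659 in TG_PS19, so that the WT and TG_PS19 libraries were larger and shallower than the PS19 libraries. Pairs of libraries shared 5 to 32 barcodes. Human MAPT had 0 UMIs in WT and 13 to 18.8 CPM (UMIs of a gene per 1000000 UMIs counted in the class or library) in the other 3 libraries, and human SORL1 had 65.9 CPM in TG_PS19 and at most 0.374 CPM elsewhere, as the labels have it. Xist, the RNA of the inactive X chromosome, stood at 1068 CPM in TG_PS19 and at 2.47 to 4.01 CPM in the other libraries, while the Y-linked gene Uty stood at 63.8 CPM in TG_PS19 and at 152 to 157 CPM in the others, so that the TG_PS19 pool held nuclei of both sexes. Sex and genotype can therefore not be told apart in TG_PS19 except by the Y-linked UMIs of single nuclei. Nuclei were grouped into cell classes by marker genes, from clusters formed without the 40 genes or the other interferon genes, and 11 classes reached 50 nuclei in each of the 4 libraries. In each of the microglial and astrocytic clusters all 8 markers of the class were raised, among them Csf1r, P2ry12 and Tmem119 for microglia and Aqp4, Gja1 and Slc1a3 for astrocytes. Inhibitory neurons, with 40 nuclei in PS19 replicate 1, were not tested. Summed counts per class and library were tested with edgeR's quasi-likelihood test over the 4 libraries, with Benjamini-Hochberg adjustment over all genes of the class. Only the PS19 pair measures a spread, which leaves 1 residual degree of freedom, and WT and TG_PS19 are assumed to vary as PS19 does. In microglia and astrocytes edgeR drew the spread of each gene wholly to the trend over all genes (infinite prior degrees of freedom). A gene's own difference between the PS19 libraries therefore hardly entered its p-value there. The contrasts PS19 against WT and TG_PS19 against PS19 share the PS19 libraries, so the members' opposite signs in them are not independent.

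The summed level of the 40 genes differed more between cell classes than between genotypes. Endothelial nuclei held the most of the 11 classes in WT, 1907 CPM, followed by microglia at 793, fibroblasts at 788, mural cells at 452 and astrocytes at 275 CPM. Oligodendrocyte precursors at 184 CPM and oligodendrocytes at 149 CPM were lower, and dentate granule neurons had 59.0 CPM, the lowest. Microglia and fibroblasts, which are neighbours in this order, had overlapping 95% Poisson intervals (739 to 851 and 748 to 830 CPM), and these intervals cover counting error only.

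In microglia the summed level was 793 CPM in WT, 1705 and 1914 CPM in the PS19 libraries and 719 CPM in TG_PS19. The PS19 values lay far above the others, and WT and TG_PS19 were close to each other. The PS19 mean of 1810 ± 148 CPM (SD, n = 2) was 2.28-fold the WT level and 2.52-fold the TG_PS19 level. Astrocytes showed the same order, with 275 CPM in WT, 545 and 525 in PS19 and 240 in TG_PS19, a PS19 mean 1.95-fold that of WT. Oligodendrocyte precursors had 184, 325, 318 and 186 CPM in the same order of libraries, 1.75-fold, and oligodendrocytes 149, 190, 192 and 147 CPM, 1.28-fold. No exact permutation test of 1 library against 2 can give a p-value below 0.333, so the sums are given without a test.

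**Figure D1:**
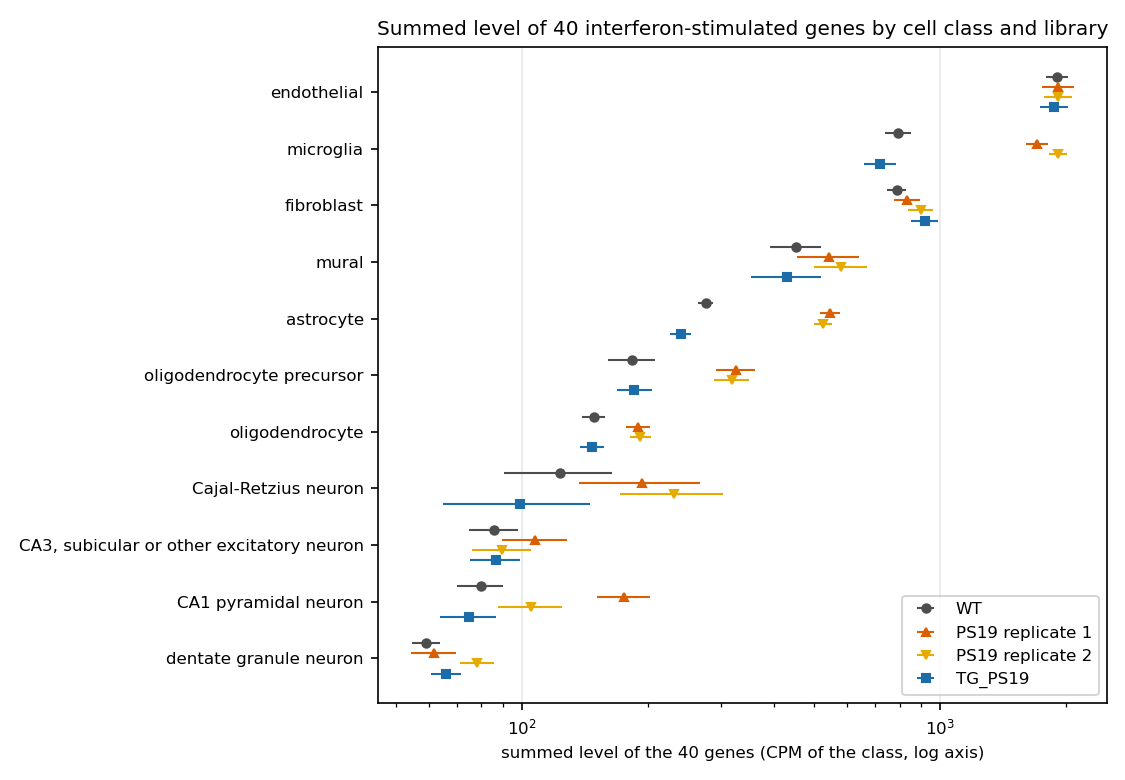
Summed level of the 40 genes in each of the 11 tested classes (rows) and each library (symbols), in CPM on a log axis, with 95% Poisson intervals of the counts. In microglia both PS19 libraries (1705 and 1914 CPM) sit to the right of WT (793 CPM) and TG_PS19 (719 CPM), while the 4 endothelial values lie on top of each other.

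Of the vascular classes, fibroblasts did not show this order, and endothelial nuclei showed it only by differences within counting error. Endothelial nuclei had 1907 CPM in WT, 1914 and 1916 in PS19 and 1872 in TG_PS19, a spread smaller than any of their counting intervals. Fibroblasts went from 788 CPM in WT to 835 and 899 in PS19 and 918 in TG_PS19. Mural cells had the same order as the glial classes, 452, 542, 579 and 431 CPM, 1.24-fold higher in PS19 than in WT, with overlapping intervals between WT and the PS19 libraries. Among neurons, dentate granule neurons had 59.0, 61.6, 78.3 and 66.0 CPM, and CA3, subicular or other excitatory neurons 85.9, 108, 89.7 and 86.6 CPM. CA1 pyramidal neurons had 79.7 CPM in WT and 74.7 CPM in TG_PS19, but the PS19 libraries themselves differed, with 176 and 105 CPM. Cajal-Retzius neurons had 124, 194, 231 and 99.3 CPM, from 26 to 51 UMIs per library. In sums over a class, more nuclei that express a gene and more RNA per nucleus cannot be told apart.

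In microglia 18 of the 40 genes rose in PS19 against WT and 0 fell, where 508 of the 10561 genes tested, 4.81%, rose and 4.73% fell. In TG_PS19 against PS19, 19 members fell and 0 rose, where 499 genes, 4.72%, fell and 4.98% rose. Between TG_PS19 and WT, 0 members changed, with 3 at an unadjusted p under 0.05 in edgeR and 0 called by DESeq2, where 0.937% of genes changed. Of the 40, 33 passed the filter on low counts, which 1 group with high counts is enough to pass. Their median log2 fold change was 1.62 in PS19 against WT and -1.52 in TG_PS19 against PS19, or -1.46 with members at 0 UMIs set to the bound that 3 counts allow, where the medians over all genes tested were 0.01 and -0.01. Without any filter, both PS19 libraries lay above both other libraries in 33 of the 40 members, where 18% of the 23433 genes with a UMI in microglia did so. Both lay below in 1 member, Gbp7, where 18.1% of genes did. The calls rest on few UMIs and on the tool: DESeq2 called 0 of the 18 rises and 1 of the 19 falls (Sp100), where it called 0.578% and 0.568% of genes, and with every nucleus thinned to 1000 UMIs edgeR called 7 rises and 5 falls among the 26 members then tested, where it called 2.99% of genes higher and 2.87% lower. Of the 412 TG_PS19 microglia, 79 carried Y-linked UMIs and no Xist UMI, and WT and PS19 nuclei were not selected in this way. With only these 79, 6 falls were called, 5 of them among the 19, where 1.79% of genes fell. The summed level in TG_PS19 then stood 0.059 above WT on the log2 scale rather than 0.14 below (-0.14).

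The transcription factors that relay the signal were higher in PS19 microglia. Stat2 stood at 27.2 CPM in WT, 78.1 and 88.4 in PS19 and 32.9 in TG_PS19. It rose in PS19 by a log2 fold change of 1.62 ± 0.31 (SE; edgeR adjusted p = 1.21e-05) and was lower in TG_PS19 than in PS19 (-1.26 ± 0.33, adjusted p = 0.00263). Irf7, the factor that amplifies type I interferon production, had 0 UMIs in WT, 19.1 and 26.5 in PS19 and 2.74, 2 UMIs, in TG_PS19. Its PS19 level was at least 7.56-fold that of WT (edgeR adjusted p = 0.000383), and 8.49-fold that of TG_PS19 (95% counting interval 2.17 to 73.0, edgeR adjusted p = 0.0487). Irf9, the DNA-binding partner of STAT2, had 30.2 CPM in WT, 60.6 and 48.0 in PS19 and 19.2 in TG_PS19. Its rise in PS19 did not pass (0.83 ± 0.33, edgeR adjusted p = 0.107), and its fall in TG_PS19 did (-1.40 ± 0.40, adjusted p = 0.00884).

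Of the ISG15 system, which tags proteins with the ubiquitin-like modifier ISG15, Usp18 changed. USP18 removes ISG15 and damps signalling at the type I receptor. Usp18 had 4.03 CPM in WT, 47.8 and 45.5 in PS19 and 9.58 in TG_PS19, so that the PS19 libraries were close together and far above the rest. The log2 fold changes were 3.48 ± 0.56 in PS19 against WT (edgeR adjusted p = 3.88e-08) and -2.18 ± 0.51 in TG_PS19 against PS19 (adjusted p = 0.000543). Isg15 itself had 1.01 CPM in WT, 9.56 and 13.9 in PS19 and 2.74 in TG_PS19, from 1 to 11 UMIs per library, and passed in neither contrast (edgeR adjusted p = 0.212 and 0.499). Herc6, the mouse ISG15 ligase, varied less, at 30.2, 39.8, 43.0 and 30.1 CPM in WT, the PS19 replicates and TG_PS19.

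Among sensors of nucleic acid, Ifi204 and Ddx60 rose in PS19 microglia. Ifi204, a DNA sensor of the HIN-200 family, had 0 UMIs in WT and TG_PS19 and 20.7 and 43.0 CPM in PS19. That is at least 10.5-fold above WT and at least 7.75-fold above TG_PS19 (edgeR adjusted p = 7.46e-07 and 2.48e-05). Ifi204 belongs to a cluster of near-identical genes, so reads may be split among its relatives. Ddx60, a helicase linked to RNA sensing, had 51.3 CPM in WT, 90.8 and 88.4 in PS19 and 38.3 in TG_PS19, with log2 fold changes of 0.80 ± 0.27 (edgeR adjusted p = 0.037) and -1.14 ± 0.31 (adjusted p = 0.00525). Ifih1, which encodes the RNA sensor MDA5, had 21.1 CPM in WT, 49.4 and 16.4 in PS19 and 9.58 in TG_PS19. The PS19 libraries lay on either side of WT, and only the fall in TG_PS19 against PS19 passed (-1.62 ± 0.56, edgeR adjusted p = 0.0412). Ddx58, which encodes the RNA sensor RIG-I, did not pass, at 28.2, 36.7, 60.6 and 35.6 CPM in WT, the PS19 replicates and TG_PS19. Dhx58, whose product LGP2 tunes those sensors, had 6.04, 9.56, 16.4 and 5.48 CPM and did not pass, and Zbp1, a sensor of Z-form nucleic acid, had 0 UMIs in WT and TG_PS19 and 5 UMIs in each PS19 library, too few to be tested.

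The IFIT genes, whose products bind foreign RNA and block its translation, lie together on chromosome 19 (GRCm38), Ifit2 at 34550694 to 34576419, Ifit3 at 34583531 to 34588731 and Ifit1 at 34640871 to 34650009. Ifit2 had 0 UMIs in WT, 11.2 and 40.4 in PS19 and 2.74 in TG_PS19. Its level in PS19 was at least 8.54-fold that in WT (edgeR adjusted p = 2.69e-05) and 10.0-fold that in TG_PS19 (95% counting interval 2.60 to 85.8, edgeR adjusted p = 0.0127). Ifit3 had 3.02 CPM in WT, 14.3 and 18.9 in PS19 and 0 UMIs in TG_PS19. Only its fall passed, to a level from which PS19 was at least 4.05-fold higher (edgeR adjusted p = 0.031). Ifit1 had 1 UMI in WT, 1 and 9 UMIs in PS19 and 0 UMIs in TG_PS19 and did not pass the filter. Ifit3 has a near-identical neighbour, Ifit3b, and shared reads may have been dropped or split.

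The OAS enzymes make the messenger that activates RNase L when they meet double-stranded RNA. Oasl2, an OAS-like member of the family, had 4.03 CPM in WT, 47.8 and 58.1 in PS19 and 1.37, 1 UMI, in TG_PS19. Its rise in PS19 was 3.68 ± 0.54 on the log2 scale (edgeR adjusted p = 8.15e-10), and PS19 was 39.1-fold above TG_PS19 (95% counting interval 6.81 to 1565, edgeR adjusted p = 1.47e-09). Oas1a had 0 UMIs in WT and TG_PS19 and 12.8 and 21.5 CPM in PS19, at least 5.67-fold above WT and at least 4.17-fold above TG_PS19 (edgeR adjusted p = 0.0123 and 0.0357). Oas1a is 1 of a family of near-identical copies, so its reads may be split. Oas2 had the same pattern at 4.78 and 16.4 CPM in PS19 and 0 UMIs in the other libraries but did not pass (edgeR adjusted p = 0.135 and 0.211). Eif2ak2, which encodes the RNA-activated kinase PKR, was expressed in every library, at 53.4 CPM in WT, 59.0 and 84.6 in PS19 and 39.7 in TG_PS19, and did not pass (edgeR adjusted p = 0.399 and 0.106).

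Rsad2, which encodes viperin, a radical enzyme that makes an antiviral nucleotide, had 0 UMIs in WT and TG_PS19 and 6.38 and 17.7 CPM in PS19, and missed the threshold (edgeR adjusted p = 0.0874 and 0.152). Its neighbour Cmpk2 had at most 1 UMI in each library.

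The interferon-induced GTPases did not move together in microglia. Iigp1 had 0 UMIs in WT and TG_PS19 and 14.3 and 34.1 CPM in PS19, at least 8.02-fold and 5.90-fold higher (edgeR adjusted p = 0.000179 and 0.00145). In PS19 replicate 1 all 9 of its UMIs came from 1 of 259 nuclei, and in replicate 2 its 27 UMIs came from 10 of 284 nuclei. Gbp7, a guanylate-binding protein gene, had 29.2 CPM in WT, 22.3 and 22.7 in PS19 and 26.0 in TG_PS19. Irgm1, a regulator of this family, had 16.1, 33.5, 25.3 and 21.9 CPM in WT, the PS19 replicates and TG_PS19. Neither passed, and Gbp2, Gbp3 and Igtp stood at or below 8.84 CPM in every library and were not tested. Reads of the guanylate-binding protein genes may be split among close copies.

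Parp14 and Parp9 encode ADP-ribosyltransferases, and Dtx3l, which shares a promoter region with Parp9, encodes the ubiquitin ligase partner of PARP9. Parp14 had 82.5 CPM in WT, 180 and 187 in PS19 and 63.0 in TG_PS19. It rose by 1.15 ± 0.22 (edgeR adjusted p = 6.24e-06) and fell by 1.46 ± 0.25 on the log2 scale (adjusted p = 3.69e-07). Parp9 had 58.4, 104, 119 and 67.1 CPM in WT, the PS19 replicates and TG_PS19 and rose in PS19 (0.93 ± 0.26, edgeR adjusted p = 0.00493), while its lower level in TG_PS19 did not pass (adjusted p = 0.113). Dtx3l was level, at 39.3 CPM in WT, 30.3 and 35.4 in PS19 and 34.2 in TG_PS19. The genes of this head-to-head pair thus differed in their calls, but their difference was not tested.

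The Schlafen genes encode proteins that restrict viral translation and cell growth. Slfn5 had 4.03 CPM in WT, 27.1 and 46.7 in PS19 and 1.37 in TG_PS19, and Slfn2 had 3.02, 25.5, 32.8 and 9.58 CPM in the same order. Slfn5 changed in both contrasts (edgeR adjusted p = 2.66e-05 and 1.32e-05) and Slfn2 in PS19 against WT (adjusted p = 0.00038), where PS19 was 9.80-fold higher (95% counting interval 3.13 to 49.4). Slfn8 was among the 10 most abundant members and did not pass, at 57.4 CPM in WT, 71.7 and 85.9 in PS19 and 87.6 in TG_PS19, the highest value of the 4 being TG_PS19. The family shares sequence, so its reads may be split.

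Among the other effectors, Trim30a, a negative regulator of innate signalling, was the most abundant member over the 4 microglial libraries. It had 98.6 CPM in WT, 190 and 186 in PS19 and 91.7 in TG_PS19, with log2 fold changes of 0.93 ± 0.21 (edgeR adjusted p = 0.000323) and -0.95 ± 0.23 (adjusted p = 0.000917). Rnf213, a giant ubiquitin ligase that coats bacteria and lipid droplets, had 67.4 CPM in WT, 139 and 133 in PS19 and 34.2 in TG_PS19. Its fall in TG_PS19 against PS19 was -1.90 ± 0.30 (edgeR adjusted p = 3.21e-08), and its lower level in TG_PS19 than in WT did not pass (adjusted p = 0.348). Sp100, a component of nuclear PML bodies, had 26.2 CPM in WT, 86.1 and 96.0 in PS19 and 5.48, 4 UMIs, in TG_PS19. Its fall had the smallest adjusted p of the members in microglia (-3.94 ± 0.49, edgeR adjusted p = 1.73e-13) and was the 1 fall that DESeq2 called. TG_PS19 stood below WT as well, which did not pass (adjusted p = 0.0933).

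Ifi44 had 6.04 CPM in WT, 41.4 and 50.5 in PS19 and 2.74 in TG_PS19, and rose by 2.91 ± 0.52 (edgeR adjusted p = 1.21e-06). PS19 exceeded TG_PS19 17.0-fold (95% counting interval 4.52 to 143, edgeR adjusted p = 6.82e-07). Xaf1, which encodes an antagonist of the apoptosis inhibitor XIAP, had 17.1 CPM in WT, 59.0 and 51.8 in PS19 and 23.3 in TG_PS19 and changed in both contrasts (1.68 ± 0.38 and -1.16 ± 0.39, edgeR adjusted p = 0.000279 and 0.0324). Bst2, which encodes tetherin, the protein that holds budding virus at the cell surface, had 9.06, 30.3, 20.2 and 10.9 CPM in WT, the PS19 replicates and TG_PS19 and did not pass (edgeR adjusted p = 0.129 and 0.343). The PS19 values of these 3 genes lay above both other libraries. Samd9l, a restriction factor, had 1.01, 6.37, 10.1 and 0 CPM and was not tested.

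**Figure D2:**
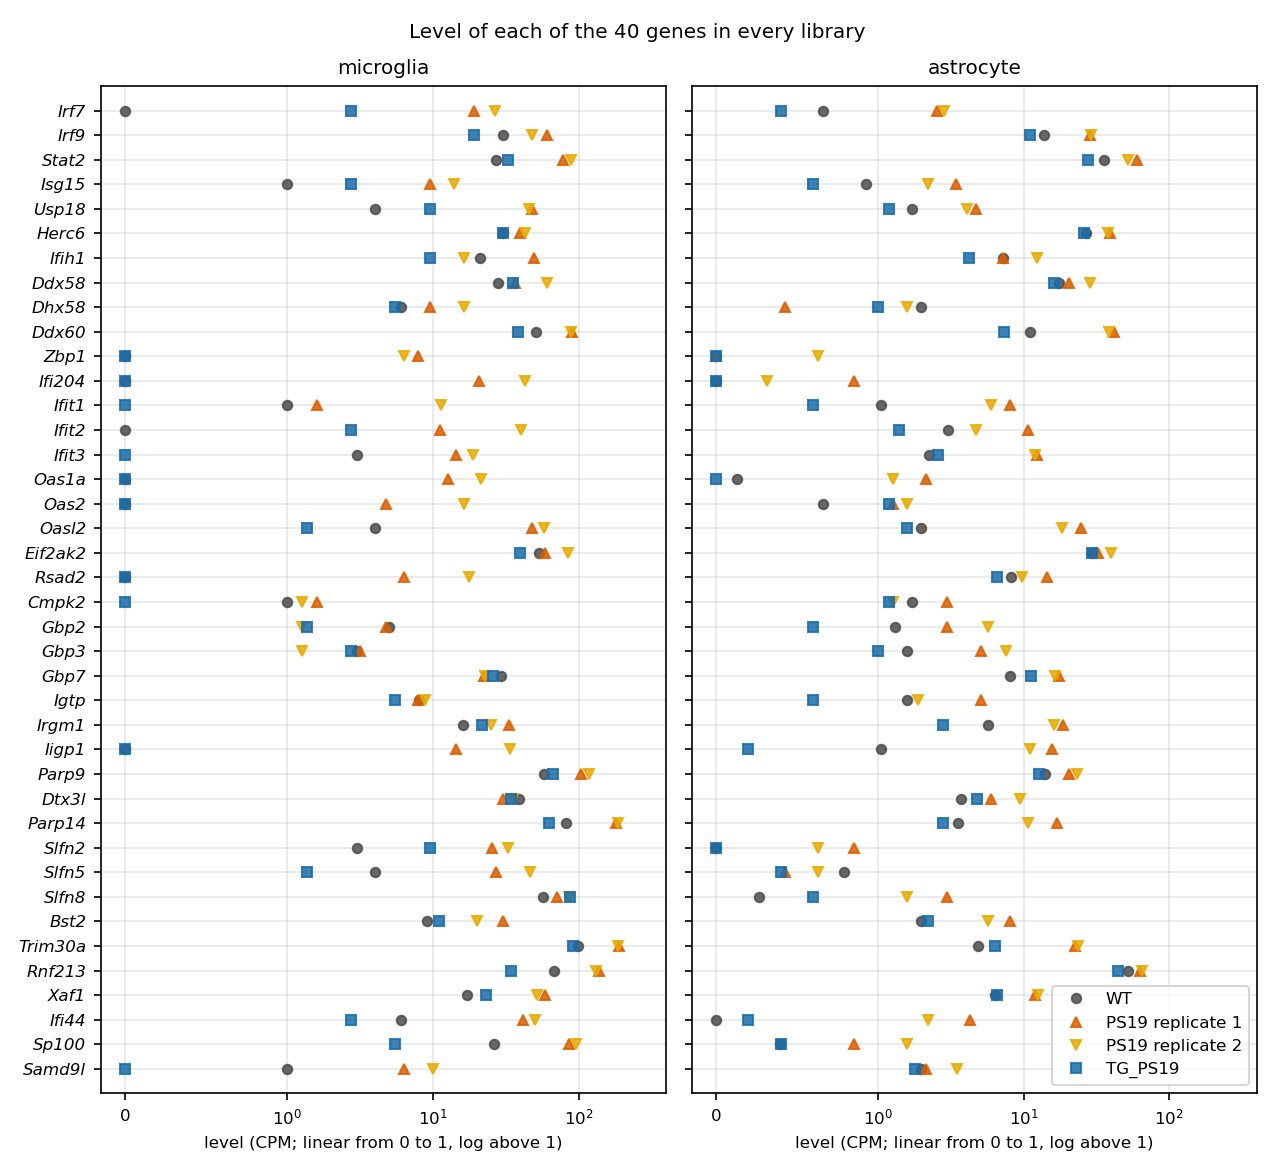
Level of each of the 40 genes (rows, ordered by role) in microglia and in astrocytes, in CPM on an axis that is linear from 0 to 1 and logarithmic above 1, with 1 symbol per library. Ifi204, Oas1a, Oas2, Rsad2, Zbp1 and Iigp1 have no UMI in WT or TG_PS19 microglia, and in 33 of 40 rows both PS19 symbols lie to the right of the other symbols in microglia and in 35 of 40 rows in astrocytes.

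In astrocytes 14 members rose in PS19 against WT and 0 fell, where 488 of 16300 genes, 2.99%, rose and 2.33% fell. From PS19 to TG_PS19, 12 fell and 0 rose, where 593 genes, 3.64%, fell and 5.21% rose, and between TG_PS19 and WT edgeR called 0 members, with 0 at an unadjusted p under 0.05 and 0 called by DESeq2, where 2.23% of genes changed. Of the 40, 32 passed the filter, with a median log2 fold change of 1.28 in PS19 against WT and -1.66 in TG_PS19 against PS19, where all genes had 0.00 and -0.01. Without a filter, both PS19 libraries lay above both others in 35 of 40 members, where 21.7% of the 29714 genes with a UMI did, and both lay below in 0, where 14.3% did. The calls were fewer under other settings: DESeq2 called 4 rises (Ddx60, Iigp1, Oasl2 and Trim30a) and 3 falls (Ddx60, Irgm1 and Oasl2), where it called 0.485% and 0.521% of genes, thinning left 2 and 2, where 1.22% and 1.35% of genes were called, and clusters formed with the members among the variable genes left 6 and 7, where 0.772% and 1.03% were. With library totals in place of the TMM scale, the median of all genes in TG_PS19 against PS19 moved to -0.19, the genes called there went from 849 higher and 593 lower to 485 higher and 1222 lower (7.5%), and 16 members fell.

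Of the 6 GTPase genes, 4 rose in PS19 astrocytes. Iigp1 had 1.06 CPM in WT, 15.8 and 11.1 in PS19 and 0.200, 1 UMI, in TG_PS19, and rose by 3.59 ± 0.51 (edgeR adjusted p = 7.42e-10). Irgm1 had 5.69 CPM in WT, 18.8 and 16.1 in PS19 and 2.80 in TG_PS19, with log2 fold changes of 1.58 ± 0.32 (edgeR adjusted p = 5.37e-05) and -2.44 ± 0.40 (adjusted p = 1.34e-07). Gbp3, with 1.59, 5.12, 7.60 and 0.999 CPM in WT, the PS19 replicates and TG_PS19, changed in both contrasts (edgeR adjusted p = 0.0215 and 0.0112). Gbp7, with 8.07, 17.5, 16.5 and 11.2 CPM, rose in PS19 (1.05 ± 0.29, edgeR adjusted p = 0.00991) and did not pass in TG_PS19 against PS19 (adjusted p = 0.481). In all 4 genes the PS19 libraries were above both others.

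Oasl2 and Ddx60 had the smallest adjusted p-values in astrocytes. Oasl2 had 1.98 CPM in WT, 24.8 and 18.4 in PS19 and 1.60 in TG_PS19 (3.38 ± 0.38 and -3.53 ± 0.44, edgeR adjusted p = 4.07e-16 and 4.1e-13). Ddx60 had 11.1 CPM in WT, 41.9 and 38.6 in PS19 and 7.40 in TG_PS19 (1.83 ± 0.23 and -2.26 ± 0.27, edgeR adjusted p = 1.18e-12 and 1.97e-14). Their TG_PS19 levels lay slightly below WT, a difference that did not pass (edgeR adjusted p = 0.968 and 0.681). Trim30a had 4.89 CPM in WT, 22.6 and 23.8 in PS19 and 6.40 in TG_PS19 (2.22 ± 0.31, edgeR adjusted p = 1.34e-10, and -1.68 ± 0.32, adjusted p = 8e-06).

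All 3 IFIT genes were tested in astrocytes. Ifit3 had 2.25 CPM in WT, 12.4 and 12.0 in PS19 and 2.60 in TG_PS19 (2.40 ± 0.43 and -2.04 ± 0.46, edgeR adjusted p = 2.39e-06 and 0.000353). Ifit1 had 1.06 CPM in WT, 8.11 and 6.02 in PS19 and 0.600, 3 UMIs, in TG_PS19 (edgeR adjusted p = 0.00218 and 0.00154). Ifit2 had 3.04, 10.7, 4.75 and 1.40 CPM in WT, the PS19 replicates and TG_PS19, and only its fall in TG_PS19 passed (-2.20 ± 0.62, edgeR adjusted p = 0.00728). The transcription factors Stat2 and Irf9 changed in both contrasts. Stat2 had 35.4 CPM in WT, 59.8 and 52.3 in PS19 and 27.6 in TG_PS19 (0.63 ± 0.17 and -0.84 ± 0.19, edgeR adjusted p = 0.00808 and 0.000368). Irf9 had 13.8 CPM in WT, 28.6 and 29.1 in PS19 and 11 in TG_PS19 (1.05 ± 0.24 and -1.21 ± 0.26, edgeR adjusted p = 0.000456 and 0.000152).

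Parp14 had 3.57 CPM in WT, 17.1 and 10.8 in PS19 and 2.80 in TG_PS19 and changed in both contrasts (1.90 ± 0.37 and -2.09 ± 0.43, edgeR adjusted p = 2.89e-05 and 6e-05). Bst2, with 1.98, 8.11, 5.70 and 2.20 CPM in WT, the PS19 replicates and TG_PS19, rose in PS19 (1.74 ± 0.54, edgeR adjusted p = 0.0297). Ifi44 had 0 UMIs in WT, 4.27 and 2.22 in PS19 and 0.200 in TG_PS19, and rose at least 8.18-fold (edgeR adjusted p = 0.00782). Members such as Rnf213 (52.4, 63.2, 64.9 and 44.2 CPM), Herc6 (26.7, 39.3, 38.0 and 26.0 CPM) and Eif2ak2 (29.3, 32.4, 39.6 and 29.6 CPM), the most abundant in astrocytes beside Stat2, did not pass. Sp100, Slfn5 and Ifi204, which changed in microglia, had at most 6 UMIs in any astrocyte library.

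The microglial and astrocytic lists overlapped in part. Of the 18 rises in microglia and the 14 in astrocytes, 7 were shared (Ddx60, Ifi44, Iigp1, Oasl2, Parp14, Stat2 and Trim30a), 38.9% of the first list and 50% of the second. A test of the difference between the classes, the interaction of class and genotype in edgeR, called few of the 37 members tested. In PS19 against WT, the fold changes of Rsad2 and Ifit2 were larger in microglia than in astrocytes (edgeR adjusted p = 0.0365 and 0.0325), where 1.68% of 15556 genes were. Both genes had 0 UMIs in WT microglia, so the sizes of these differences have no upper bound. The rise of Trim30a was smaller in microglia, by a log2 difference of -1.23 ± 0.35 (edgeR adjusted p = 0.0176), where 1.69% of genes did. In TG_PS19 against PS19, the fold change of Rnf213 was lower in microglia by a log2 difference of -1.59 ± 0.35 (edgeR adjusted p = 0.000672), where 1.28% of genes did.

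Oligodendrocytes and their precursors held few calls. In oligodendrocytes edgeR called 0 members higher in PS19 than in WT, with 6 at an unadjusted p under 0.05 and 0 called by DESeq2, where 1.89% of 16154 genes rose. Ddx60 and Xaf1 fell in TG_PS19 against PS19, where 2.29% of genes fell. Xaf1, with 49.9 CPM in WT, 62.6 and 64.4 in PS19 and 42.9 in TG_PS19, fell by 0.51 ± 0.14 (edgeR adjusted p = 0.0295). Ddx60 had 0.763, 2.56, 3.58 and 0.314 CPM in WT, the PS19 replicates and TG_PS19 (edgeR adjusted p = 0.029), the TG_PS19 value being 2 UMIs. In precursors edgeR called 0 members higher in PS19 than in WT, with 7 at an unadjusted p under 0.05 and 0 called by DESeq2, where 0.216% of genes rose. There Ddx60 had 11.7 CPM in WT, 32.3 and 26.9 in PS19 and 11.4 in TG_PS19 and fell in TG_PS19 against PS19 (-1.27 ± 0.35, edgeR adjusted p = 0.0216), the 1 call among members there, where 0.583% of 12525 genes fell. Against oligodendrocytes, 6 members had larger fold changes in microglia in PS19 against WT: Stat2 by 1.41 ± 0.34, Xaf1 by 1.29 ± 0.40 and Rnf213 by 1.02 ± 0.28 on the log2 scale (edgeR adjusted p = 0.00238, 0.0413 and 0.0152), with Oasl2, Irf7 and Ifit2, where 1.83% of 16592 genes did. Irf7 and Ifit2 had 0 UMIs in WT microglia, and Irf7 had 0 UMIs in both PS19 oligodendrocyte libraries, so the sizes of their differences are not bounded. Between TG_PS19 and PS19 the fold changes of Trim30a, Irf7, Stat2, Rnf213 and Ifit2 were lower in microglia, where 1.42% of genes were.

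In the contrast of TG_PS19 with WT, edgeR called 0 members in either class, with 3 and 0 at an unadjusted p under 0.05 and 0 called by DESeq2, where 1.73% and 0.782% of genes changed.

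Elsewhere 1 member was called. In dentate granule neurons Iigp1 had 2.16 CPM in WT, 3.46 and 3.69 in PS19 and 5.31 in TG_PS19, and was higher in TG_PS19 than in WT (1.41 ± 0.45, edgeR adjusted p = 0.0368), where 4.05% of 17402 genes were. The call was lost with library totals in place of the TMM scale (edgeR adjusted p = 0.0577). In endothelial nuclei, where members were most abundant, Ddx60 had 125, 126, 86.8 and 114 CPM and Stat2 90.7, 84.0, 92.8 and 92.4 CPM in WT, the PS19 replicates and TG_PS19. In the endothelial, fibroblast, mural, CA1, CA3 and Cajal-Retzius classes edgeR called 0 members in any contrast, with at most 3 members per class and contrast at an unadjusted p under 0.05 and 0 called by DESeq2. The genes called in these 6 classes, in that order, were 0.0784%, 2.97%, 0.642%, 0.426%, 0.0932% and 0.325% of those tested in PS19 against WT. They were 0.131%, 2.08%, 0.81%, 2.28%, 1.59% and 0.427% in TG_PS19 against PS19 and 0.105%, 2.27%, 0.0917%, 1.44%, 0.681% and 0.154% in TG_PS19 against WT. In dentate granule neurons the other contrasts called 0 members in edgeR, with 1 and 2 at an unadjusted p under 0.05 and 0 called by DESeq2, where 3.03% of genes changed in PS19 against WT and 9.41% in TG_PS19 against PS19.

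The microglial class was made of 2 clusters whose shares differed between libraries, and the members' level differed between them. The cluster led by Siglech held 95.4% of WT microglia, 22.0% and 21.5% of PS19 microglia and 96.4% of TG_PS19 microglia, and the cluster led by Ly86 held the rest. Within the Siglech cluster the summed level of the 40 genes was 790 CPM in WT, 890 and 857 in PS19 and 722 in TG_PS19, with the PS19 intervals (731 to 1073 and 718 to 1014 CPM) overlapping that of WT (734 to 849 CPM). Within the Ly86 cluster it was 1903 and 2177 CPM in PS19, 854 CPM in the 27 WT nuclei (625 to 1139 CPM) and 639 CPM in the 15 TG_PS19 nuclei (372 to 1023 CPM). The high levels in PS19 thus sat in the Ly86 cluster, and the WT and TG_PS19 values in that cluster, from few nuclei, were lower. In astrocytes the PS19 libraries were above both others in each of the 2 clusters. In the cluster led by Rorb the levels were 259 CPM in WT, 498 and 362 in PS19 and 231 in TG_PS19, and in the cluster led by Myoc and Gfap, which held 8.90%, 30.1%, 28.7% and 5.73% of the class, 462, 647, 889 and 407 CPM.

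**Figure D3:**
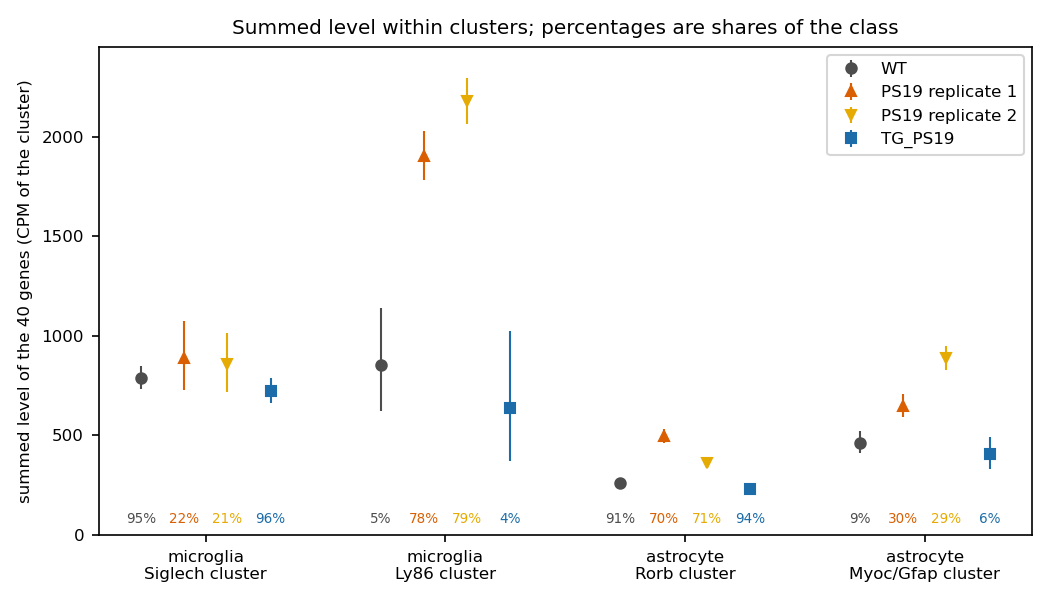
Summed level of the 40 genes (CPM, linear axis) in the 2 microglial and 2 astrocytic clusters, 1 symbol per library with 95% Poisson intervals, and below each symbol the share of the class that the cluster holds. PS19 values of 1903 and 2177 CPM in the Ly86 cluster stand apart from all other microglial values.

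Few nuclei carried many members at once. With every nucleus thinned to 1000 UMIs, 4.49% of WT microglia (25 of 557), 18% and 15.2% of PS19 microglia (46 of 255 and 43 of 283) and 3.03% of TG_PS19 microglia (12 of 396) had at least 3 different members. The exact binomial intervals of the PS19 libraries (13.5% to 23.3% and 11.2% to 19.9%) can be set beside those of WT (2.93% to 6.55%) and TG_PS19 (1.58% to 5.23%). They cover the sampling of nuclei within a library only, and since WT and TG_PS19 are 1 library each they are no test between genotypes. Thinning left out 30, 4, 1 and 16 microglia in WT, the PS19 replicates and TG_PS19. Unthinned, the shares were 11.2%, 39.8%, 48.2% and 11.7%, at median depths of 1605, 2200, 2574 and 1646 UMIs. In dentate granule neurons, the class with the lowest summed level, 0 of 1600, 482, 550 and 994 thinned nuclei had 3 members, which allows shares of up to 0.188%, 0.622%, 0.545% and 0.302%.

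At least 10 different members were found in 1 of 587 WT microglia, 15 of 259 and 18 of 284 PS19 microglia and 0 of 412 TG_PS19 microglia, and the most in 1 nucleus was 13, 31, 32 and 8. The 5% of microglia with the most member UMIs held 20.7% of all member UMIs in WT, 33.4% and 43.8% in PS19 and 21.1% in TG_PS19. These nuclei were also deeper than the rest, with median UMIs of 2619 against 2184 and 3190 against 2570 in PS19. Without them the summed level was 676 CPM in WT, 1214 and 1147 in PS19 and 606 in TG_PS19, still above WT and TG_PS19 in both PS19 libraries, and edgeR called 7 rises and 6 falls among the 23 members then tested, where 4.36% of genes rose and 4.09% fell. In astrocytes 8 of 595 and 11 of 663 PS19 nuclei had at least 10 members, against 3 of 2538 in WT and 1 of 1552 in TG_PS19. The most in 1 astrocyte was 24 in WT, 24 and 33 in PS19 and 16 in TG_PS19, so single nuclei with many members were also found outside PS19. Without the top 5% the astrocytic level was 216, 323, 330 and 192 CPM.

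**Figure D4:**
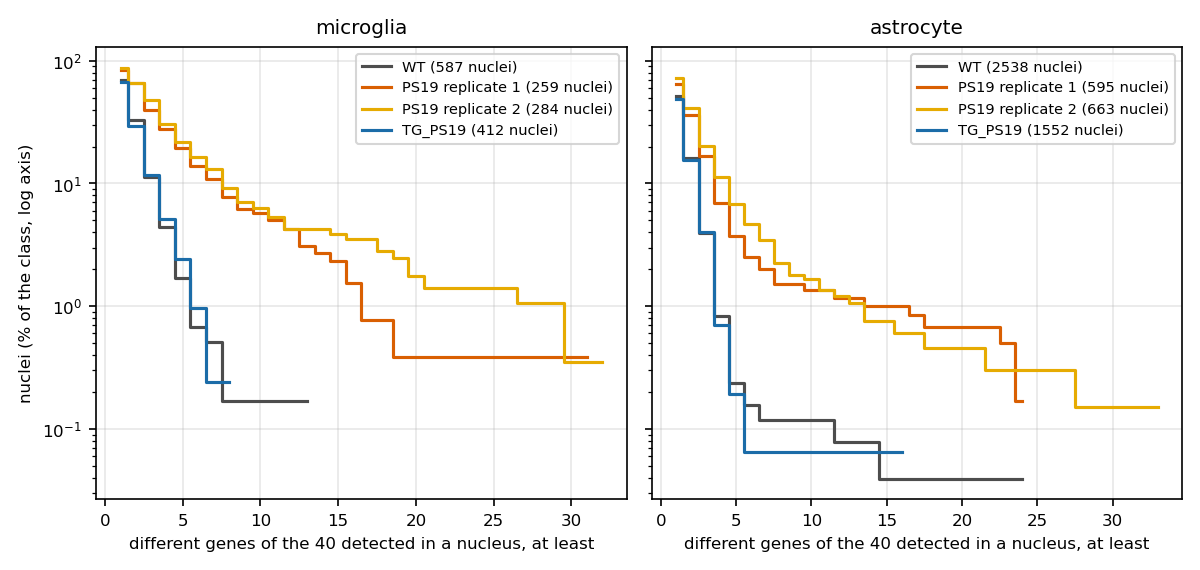
Share of microglia and astrocytes (percent of the class, log axis) in which at least the given number of different members was detected, 1 line per library, without thinning. The PS19 lines run to 31 and 32 members in microglia, while those of WT and TG_PS19 end at 13 and 8. In astrocytes the lines end at 24 in WT, 24 and 33 in PS19 and 16 in TG_PS19.

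Members differed in how far they were held by those few nuclei. In the PS19 microglia, 94.4% of the UMIs of Rsad2 (17 of 18) and of Iigp1 (34 of 36) came from the top 5% of nuclei, and 85.1% of those of Ifi204, 82.4% of Isg15 and 75% of Oasl2. The share was 37.8% for Stat2, 31.4% for Parp14 and 18.4% for Irf9. It was 44% for Oas1a and 30% for Zbp1, which had 0 UMIs in WT. Since the top nuclei were chosen by their member UMIs, these shares describe how single genes divide within that choice.

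The other genes of the pathway gave a mixed record in microglia. Of the 10 interferon ligand genes, 9 had 0 UMIs in every microglial library and Ifnk had 1 UMI, in PS19 replicate 2. Of 8 receptor and JAK kinase genes, Tyk2, the kinase bound to IFNAR1, rose in PS19 (63.4 CPM in WT, 127 and 109 in PS19, 95.8 CPM in TG_PS19, edgeR adjusted p = 0.00637), and Ifngr1, the ligand-binding chain of the interferon-gamma receptor, fell (270, 183, 165 and 278 CPM, adjusted p = 0.00689). Ifnar2 and Ifngr2 fell in TG_PS19 against PS19 (edgeR adjusted p = 0.000445 and 0.0155), and Ifngr1 rose (adjusted p = 0.00117). Of 12 upstream sensors and adaptors, Tbk1, the kinase that activates IRF3, rose in PS19 (134, 239, 193 and 151 CPM, edgeR adjusted p = 0.0084) and Sting1, the adaptor of the DNA sensor cGAS, fell (141, 124, 60.6 and 107 CPM, adjusted p = 0.0356). Tlr7, a sensor of single-stranded RNA encoded on the X chromosome, was highest in TG_PS19 (118, 148, 152 and 219 CPM) and exceeded both PS19 and WT there (edgeR adjusted p = 0.0195 and 0.0042). TG_PS19 is also the library with high Xist, and the part of sex in this difference was not tested.

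Among the further transcription factors of the pathway, Irf8, a lineage factor of microglia, fell in TG_PS19 against PS19 (edgeR adjusted p = 0.00218). Of 9 negative regulators, Socs3, an inhibitor of JAK signalling, rose in PS19 (6.04, 27.1, 25.3 and 8.21 CPM, edgeR adjusted p = 0.0237). Of 51 interferon-stimulated genes outside the 40, 29 were tested. In PS19 against WT 7 of them rose and 1 fell, where 4.81% of all genes rose and 4.73% fell, and in TG_PS19 against PS19 0 rose and 13 fell, where 4.98% rose and 4.72% fell. Mx1, which encodes a GTPase that traps viral nucleocapsids, had 2.01 CPM in WT, 43.0 and 36.6 in PS19 and 2.74 in TG_PS19 (edgeR adjusted p = 4.67e-07 and 4.36e-05). Nlrc5, the transactivator of MHC class I genes, had 3.02, 47.8, 55.6 and 4.11 CPM (edgeR adjusted p = 2.64e-10 and 2.98e-07), and Irgm2, a GTPase, was the 1 that fell (101, 47.8, 50.5 and 43.8 CPM, adjusted p = 0.00182). Also higher in PS19 were Ifi207, Ifi209 and Ifi211, relatives of Ifi204 with 0 UMIs in WT, with Ifi27 and Trim25.

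Markers of other cells were read in the same microglial sums. Of the T cell list, Cd3e, Cd3g, Themis, Trac, Trbc2 and Cd8a were at 0 UMIs in all 4 libraries, and the list summed to 6.32 to 14.1 CPM. Border macrophage markers summed to 202 CPM in WT, 143 and 148 in PS19 and 196 in TG_PS19, most of it Stab1, with Cd163 and Lyve1 at 0 in every library. Ms4a7 of that list moved with the members, with 0 UMIs in WT and TG_PS19 and 17 and 14 UMIs, 27.1 and 17.7 CPM, in PS19, and its part in the result was not tested. The neutrophil list summed to 310, 618, 609 and 397 CPM through 2 of its 7 genes, nearly all of it Csf3r, while S100a8, S100a9, Retnlg, Ly6g and Mmp9 were at 0 in every library. Csf3r thus moved with the members, and its part in the result was not tested. The endothelial list, whose class holds the highest member level, summed to 107, 158, 111 and 73.9 CPM in microglia with all 8 markers detected, and its part in the result was not tested. In astrocytes the endothelial list summed to 22.6 to 35.7 CPM and was not higher in PS19 than in WT.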

How the data were processed

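Single-nucleus libraries of pooled hippocampus were deposited as gene by barcode matrices of UMI counts, whole numbers that the authors made with Cell Ranger 7.1.0 on GRCm38, per the submitters' processing notes. The annotation release, the use of introns and strand, and any removal of background RNA are not given in the sources used here. Samples were grouped by the genotype in their labels.

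Barcodes under 500 UMIs or 300 genes, or above 5% mitochondrial UMIs, were dropped. Doublets were scored against simulated pairs and removed at 0.8% per 1000 barcodes. Clusters came from 2000 variable genes without the members or pathway genes, 30 principal components, 15 neighbours and Leiden at resolution 1.0 (Python 3.11.15, scikit-learn 1.9.0, leidenalg 0.10.2), and were named from 19 marker lists. Counts were summed per class and library and tested with edgeR 4.0.16 (quasi-likelihood, TMM, filterByExpr, R 4.3.3), and DESeq2 1.42.0 was an alternative. The scripts were tested on simulated data. Levels are CPM of the class. A fold against a library with 0 UMIs is a lower bound from 3 counts in that library, and ratios against 1 to 3 UMIs carry 95% exact counting intervals.

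Levels are given for every member called in any class and for the 10 most abundant in microglia. The members and lists were chosen with earlier results of these data known. The alternatives without the 5% of nuclei richest in member UMIs and the levels within clusters were added after the data were seen. Gene positions are from GENCODE M21 and promoters from RefSeq, both GRCm38.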

Additional observations from a re-analysis of the deposited data

Results flagged for a closer look

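Some of the 37 members tested responded differently in microglia than in another glial class, by the interaction of class and genotype in edgeR with adjustment over all genes. Against astrocytes in PS19 against WT, the edgeR adjusted p was 0.0176 for Trim30a, whose fold change was smaller in microglia, where 1.69% of all genes were. It was 0.0365 and 0.0325 for Rsad2 and Ifit2, whose fold changes were larger, where 1.68% of all genes were. Rsad2 and Ifit2 had 0 UMIs in WT microglia, so the sizes of their differences have no upper bound. In TG_PS19 against PS19 the edgeR adjusted p was 0.000672 for Rnf213, whose fold change was lower in microglia, where 1.28% of all genes were. Against oligodendrocytes in PS19 against WT, fold changes were larger in microglia for Oasl2 (edgeR adjusted p = 0.0272), Irf7 (0.0162), Stat2 (0.00238), Xaf1 (0.0413), Rnf213 (0.0152) and Ifit2 (0.000719), where 1.83% of all genes were. Irf7 and Ifit2 had 0 UMIs in WT microglia, and Irf7 had 0 UMIs in both PS19 oligodendrocyte libraries, so the sizes of their differences are not bounded. In TG_PS19 against PS19 the fold changes were lower in microglia for Trim30a (edgeR adjusted p = 0.0471), Irf7 (0.00744), Stat2 (0.0322), Rnf213 (1.11e-05) and Ifit2 (0.00719), where 1.42% of all genes were.

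Some clusters outside the tested classes held member levels above those of WT, and these differences were not tested. An unnamed cluster led by Ttr and Dynlt1a had 687 CPM in the 13 nuclei of PS19 replicate 1 and 267 CPM in the 655 nuclei of TG_PS19, against 123 CPM in WT and 38.2 CPM in PS19 replicate 2. An unnamed cluster led by Adgrv1 and Siah3 had 1530.0 and 561 CPM in the PS19 libraries, from 24 and 35 nuclei, against 350.4 CPM in WT and 288 CPM in TG_PS19. An unnamed cluster led by Sntb1 had 2651 CPM in TG_PS19 from 2 nuclei and 19 UMIs, against 961 CPM in 282 WT nuclei, and held 0 PS19 nuclei. Ependymal nuclei of PS19 replicate 1 had 1056 CPM, against 213 CPM in WT, 302 CPM in PS19 replicate 2 and 227 CPM in TG_PS19. T cells of PS19 replicate 1, 15 nuclei, had 3905 CPM, against 1888 CPM in 11 WT nuclei.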

How the results depend on the processing

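No paired analysis was possible because only PS19 has more than 1 library. Over 27 summary results, 255 values under alternatives were set beside the main values. Of these, 183 stayed within the SD between the PS19 libraries (for medians, between fits without 1 of them) or, for counts of calls, within a set range. A further 56 moved by more than that SD, 15 counts fell below the range and 1 value reversed. Of 644 tested values for 67 single member calls, 505 kept the call, 139 lost it and 0 reversed. A further 121 values without 1 PS19 library have no test and kept their direction. A call whose member an alternative did not test, or gave no adjusted p, is not among the 644 values and counts as neither kept nor lost. Of the 67 calls, DESeq2 kept 8 and lost 30 of the 38 it could judge. Thinning kept 16 and lost 39 of 55. Y-called nuclei, used only for the contrasts with TG_PS19, kept 15 and lost 20 of 35. The set without the richest 5% of nuclei, made only for microglia and astrocytes, kept 21 and lost 26 of 47. RLE scaling, resolution 2.0 and a robust prior lost 0 of 67 each. Where an alternative uses fewer UMIs or nuclei the tests have less to call, and the cause of each change was not tested. Without 1 PS19 library no residual degrees of freedom remain, so such fits give values and no calls. Depth limits the members with few UMIs, such as Ifit1, Cmpk2, Gbp2 and Gbp3 in microglia, which did not reach the test.

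Log2 ratios of summed levels moved as follows. Without the richest 5% of nuclei, microglia had 0.80 in PS19 against WT and -0.96 in TG_PS19 against PS19, and astrocytes 0.59 and -0.77. Y-called TG_PS19 nuclei gave -1.13 in microglia against PS19 and, reversed from -0.14, 0.059 against WT, and -1.06 and -0.10 in astrocytes, -0.55 in oligodendrocytes and -0.62 in precursors. Thinning gave 0.78, -0.90 and -0.13 in astrocytes for PS19 against WT, TG_PS19 against PS19 and TG_PS19 against WT, 0.45 and -0.53 in oligodendrocytes and 0.54 in precursors. TMM sizes gave -0.98 and -0.042 in astrocytes for the contrasts with TG_PS19, 0.40 and -0.32 in oligodendrocytes and 0.84 and -0.71 in precursors. Without Stat2, the member with most UMIs over all classes and libraries, though second to Rnf213 in astrocytes and to Xaf1 in oligodendrocytes, astrocytes had 1.00 and oligodendrocytes 0.42 and -0.45. With doublets kept, oligodendrocytes had 0.33 and precursors 0.63 and -0.75.

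Counts of called members fell in microglia from 18 rises to 7 with thinning, 7 without the richest nuclei and 0 with DESeq2, and from 19 falls to 5, 6 and 1, with 6 for Y-called nuclei. In astrocytes 14 rises became 6 with members among the variable genes, 2 thinned, 3 without the richest nuclei and 4 with DESeq2, and 12 falls became 7, 2, 5 and 3. The astrocytic counts without the richest nuclei are given without the share of all genes called there and cannot be read against it. Of the microglial rises, Parp14, Sp100, Stat2, Trim30a and Usp18 were called both thinned and without the richest nuclei.

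Median log2 fold changes of the tested members moved too. In microglia PS19 against WT went from 1.62 to 1.37 with doublets kept, 1.20 thinned and 0.84 without the richest nuclei, and leaving out 1 PS19 library gave 1.05 to 1.31. TG_PS19 against PS19 went from -1.52 to -1.68 with Y-called nuclei and -0.78 without the richest nuclei (-1.41 to -1.25 leaving out 1 PS19 library). TG_PS19 against WT went from 0.00 to -0.25 without the richest nuclei, where fewer members were tested. The 0.00 falls on Ifi204, Oas1a, Oas2, Rsad2 and Iigp1, which had 0 UMIs in both of these libraries and say nothing about that contrast. In astrocytes PS19 against WT went from 1.28 to 1.38 with no filter or with doublets kept, 1.10 thinned and 0.65 without the richest nuclei (1.12 to 1.24 leaving out 1 library). TG_PS19 against PS19 went from -1.66 to -1.84 with library totals, -0.77 thinned, -1.21 with Y-called nuclei and -0.76 without the richest nuclei (-1.63 to -1.49 leaving out 1 library). TG_PS19 against WT went from -0.16 to -0.32 with library totals, -0.049 with doublets kept, -0.075 thinned, -0.019 with Y-called nuclei and -0.054 without the richest nuclei.

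The share of microglia with at least 3 different members differed by 12.1 percentage points in PS19 against WT and -13.6 in TG_PS19 against PS19 when thinned, by 32.8 and -32.4 when not thinned, and for at least 2 members by 15.4, -18.9 and, in TG_PS19 against WT, -3.53.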

Other observations

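Outside the tested classes, an unnamed cluster led by Mrc1 and Cd74 had a high level of the 40 genes in every library, at 2128 CPM in 41 WT nuclei, 2097 and 2132 CPM in 6 and 12 PS19 nuclei and 2881 CPM in 15 TG_PS19 nuclei. The T cells of PS19 replicate 2 and TG_PS19 had 2537 and 2689 CPM, from 15 and 5 nuclei.

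Genes of the pathway outside the 40 also changed in astrocytes. Socs3, an inhibitor of JAK signalling, had 1.45 CPM in WT, 18.8 and 16.8 in PS19 and 1.40 in TG_PS19 and rose in PS19, as did Tlr4, Ticam1 and Stat3. Of the 51 other interferon-stimulated genes, 27 were tested in astrocytes and 8 rose in PS19, namely Gbp5, Ifitm3, Nlrc5, Ifi35, Ifi27, Parp10, Mx2 and Ifit3b, where 2.99% of all genes rose. In TG_PS19 against PS19, 12 of the 27 fell, where 3.64% of all genes did.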
